A study of Mus musculus with 8 samples.

Results

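The 8 genes described here are the serum amyloid A genes Saa1, Saa2, Saa3 and Saa4 and the acute phase genes Hp, Orm1, Itih4 and Lcn2, followed across the serum exosome libraries of mice with and without a canine bone tumour graft. They were chosen by symbol, with earlier results of these data known. All 8 were found, each once, among 31300 mouse genes in a table of 52016 mouse and canine genes. RNA of exosomes, the small vesicles that cells release into blood, had been enriched from pooled serum of NCr nu/nu mice, an athymic strain that lacks mature T cells and keeps its liver and its innate immune cells. Of the 4 groups of 2 libraries each, OSCA-40 and OSCA-32 came from mice given 100000 cells of the canine osteosarcoma line of that name into the tibia in 10 µl, and PBS from mice given 10 µl of phosphate-buffered saline, with serum taken at necropsy in week 8. The week 0 group was serum pooled from all mice before injection, and the labels give no ages. No label says that the 2 libraries of a group were made from different mice. The p-values below therefore cover the variation between libraries alone, which may be technical, and each tumour group stands for 1 cell line.

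The acute phase response is the change in plasma proteins that follows inflammation, tissue injury or cancer. Interleukin-6, interleukin-1 and tumour necrosis factor act on hepatocytes through STAT3, C/EBP and NF-kappaB factors, and the liver then secretes serum amyloid A, haptoglobin, orosomucoid and other proteins in large amounts, while albumin and transferrin are made less. In mice Saa1 and Saa2 encode the inducible amyloid A proteins carried on high-density lipoprotein, Saa3 is made mainly outside the liver, in macrophages and fat, and Saa4 encodes the constitutive form.

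The first question for such a family is whether reads of its copies can be told apart. The 4 Saa genes lie together on chromosome 7 of GRCm38: Saa3 at chr7:46711998-46715700, Saa4 at chr7:46727998-46732603 and Saa1 at chr7:46740497-46742980, all on the minus strand, and Saa2 at chr7:46751790-46754313 on the plus strand. The coding sequences of Saa1 and Saa2, both of 369 bases, were identical at 351 positions (95.1%) and differed at 18. Their last 300 bases, coding positions 70 to 369 of the GENCODE M21 transcripts, hold all 18 and are printed 5′ to 3′ to show how little sequence separates the pair. Capitals mark the differing positions.
Saa1: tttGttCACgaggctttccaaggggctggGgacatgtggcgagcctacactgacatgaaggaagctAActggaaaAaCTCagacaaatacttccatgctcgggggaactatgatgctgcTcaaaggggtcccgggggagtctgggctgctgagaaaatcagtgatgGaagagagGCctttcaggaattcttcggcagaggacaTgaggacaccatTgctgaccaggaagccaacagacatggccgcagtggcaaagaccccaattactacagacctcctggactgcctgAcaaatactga
Saa2: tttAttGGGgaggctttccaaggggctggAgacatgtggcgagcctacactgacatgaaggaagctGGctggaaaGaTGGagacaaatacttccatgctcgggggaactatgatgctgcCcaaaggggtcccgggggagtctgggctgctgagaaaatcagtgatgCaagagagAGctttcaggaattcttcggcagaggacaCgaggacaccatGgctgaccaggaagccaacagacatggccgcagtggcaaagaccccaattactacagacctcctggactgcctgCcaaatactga
The longest stretch without a difference was 73 bases, and 5 stretches held 31 bases or more. Between Saa1 and Saa3 the coding identity was 75.3%, and between Saa1 and Saa4 64.6%, so the remaining Saa genes differ from the pair at many more positions.

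Over whole transcripts, introns kept in annotated transcripts included, 46.8% of the 31-base words of Saa1 and 44.5% of those of Saa2 also occurred in transcripts of other genes. Nearly all of these were shared within the pair, at 1151 words. The levels of Saa1 and Saa2 are therefore uncertain one by one and are also given as a sum. Orm1 (chr4:63344560-63348163, plus strand) shared 27.5% of its words, all 205 of them with Orm2 and 35 with Orm3. Saa3 shared 7.56% of its words and Saa4 1.63%, and the stretches of Saa3 recurred in transcripts of 3041 other genes and those of Saa4 in 2754. Hp (chr8:109575128-109579172, minus strand) shared 4 words, Itih4 (chr14:30886476-30902353, plus strand) 7 and Lcn2 (chr2:32384633-32388252, minus strand) 0. Canine transcripts were not compared, so whether reads from the graft were assigned to these mouse genes was not tested.

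**Figure D1:**
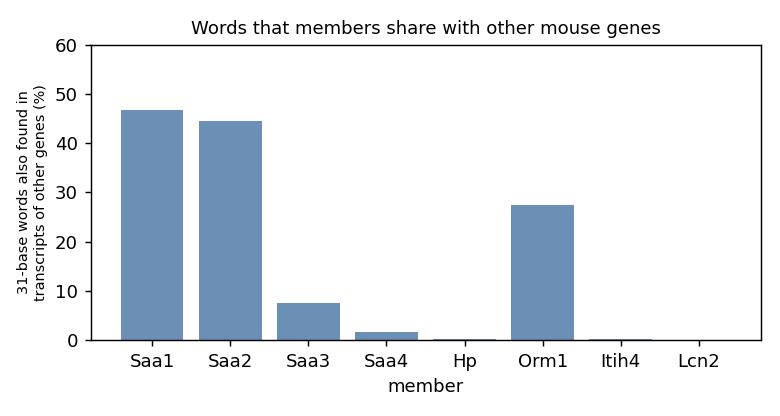
Share of the distinct 31-base words of each member's annotated transcripts (y axis, %) that also occur in transcripts of another mouse gene (GENCODE M21, both strands), by member on the x axis. The bars of Saa1 (46.8%), Saa2 (44.5%) and Orm1 (27.5%) stand above the others, and Lcn2 has none.

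The deposited values are whole numbers that sum to between 977106 and 989183 in every library and behave as relative amounts per transcript length, so levels can be set side by side between genes while the sequencing depth is unknown. Canine genes held 68.4% to 70.7% of the OSCA-40 libraries and 43.3% to 44.7% of the OSCA-32 libraries, against 14.7% to 15.2% in PBS and 16.1% to 17.4% at week 0, and mouse values as a whole were lower where this share was larger. With library totals alone the median tested mouse gene differed by -1.53 on the log2 scale in OSCA-40 against PBS, by -0.56 in OSCA-32 against PBS, by -0.96 between the lines and by 0.05 in PBS against week 0. Scaled values, which divide each library by a factor set on the bulk of genes, are therefore given beside the deposited ones, and fold changes are on the log2(scaled value + 1) scale unless said otherwise, which understates changes of low genes. After scaling, each deposited unit equals 2.07 and 2.16 scaled units for OSCA-40, 1.02 and 0.993 for OSCA-32, 0.677 and 0.669 for PBS and 0.705 and 0.693 for week 0. Among genes of vesicle marker proteins, the tetraspanin gene Cd63 was listed at 3 and 3 in OSCA-40, 3 and 5 in OSCA-32, 6 and 7 in PBS and 7 and 7 at week 0. Cd9 was at 29 and 26 in OSCA-40, 106 and 117 in OSCA-32, 208 and 192 in PBS and 198 and 234 at week 0. The other vesicle markers read, Cd81, Tsg101, Pdcd6ip and Flot1, were at 15 or lower in every library, so Cd9 alone was high. These are RNA levels and not protein, so they do not test whether the material was exosomes. In serum, fewer vesicles of a source and less RNA per vesicle cannot be told apart, as for cells of a type in any bulk sample.

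Most members stood at or somewhat above the middle of all genes. Over the 8 libraries Saa4 averaged 34.9 deposited units, at the 95.7th percentile of 21474 protein-coding mouse genes. Itih4 averaged 7.25 (73.5th percentile), Saa2 7.13 (73.0th), Lcn2 5.25 (63.2nd), Saa1 5.13 (62.4th), Hp 4.5 (57.7th), and Saa3 and Orm1 3.75 each (51.2nd). Among all protein-coding genes the median value was 1 to 2 in OSCA-40, 3 in OSCA-32 and 5 in PBS and at week 0. The median of 1091 olfactory receptor genes, which are made by sensory neurons of the nose, stood at 1 in OSCA-40, 2 in OSCA-32 and 3 in PBS and at week 0. A member listed at 3 to 5 in PBS or at week 0 thus lay close to the level of genes that blood and liver are not known to use.

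**Figure D2:**
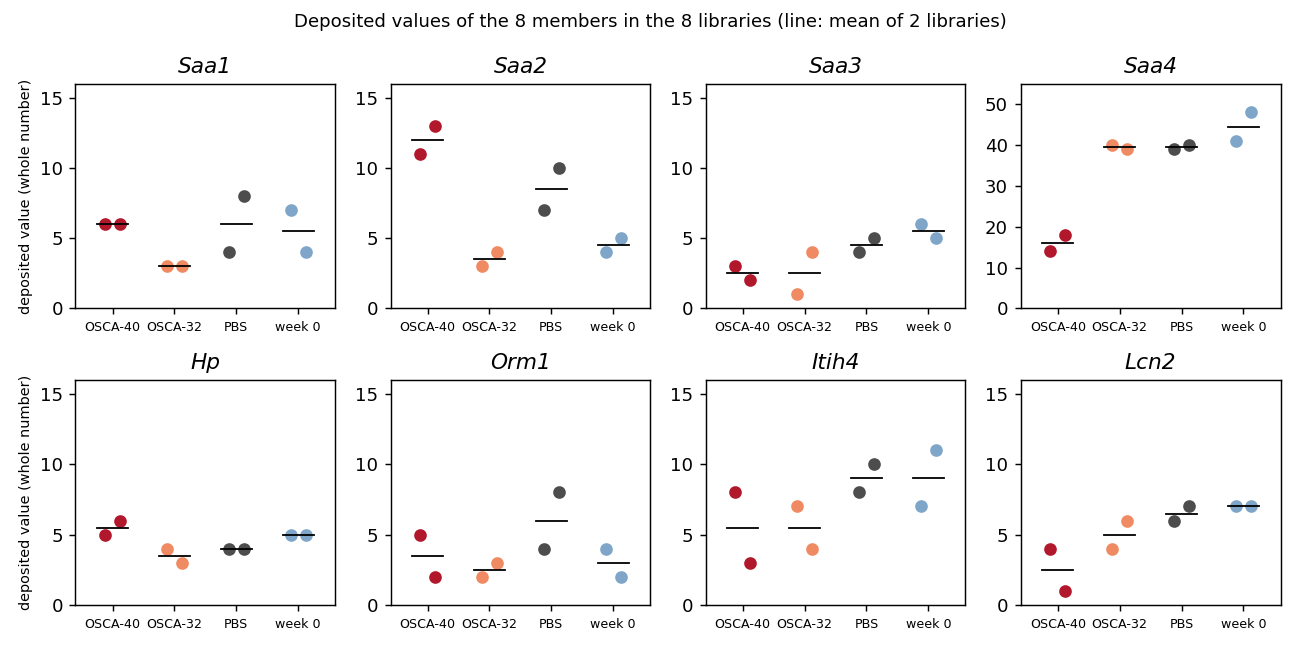
Deposited value (y axis, whole-number relative amount) of each member in the OSCA-40, OSCA-32, PBS and week 0 groups (x axis); each point is a library and each line the mean of 2. Saa4 has its own range up to 55, and Saa2 is highest in the OSCA-40 libraries, at 11 and 13.

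Saa2 was the member with the clearest difference between groups. Saa2 was listed at 11 and 13 in OSCA-40, 3 and 4 in OSCA-32, 7 and 10 in PBS and 4 and 5 at week 0. Both OSCA-40 libraries stood above every other library, and the OSCA-32 and week 0 values met at 4. On the scaled values it averaged 25.4 ± 3.75 in OSCA-40, 3.52 ± 0.643 in OSCA-32, 5.71 ± 1.38 in PBS and 3.14 ± 0.456 at week 0 (SD, n = 2 each). Among protein-coding genes its mean in OSCA-40 lay at the 94.2nd percentile, against the 52.5th in OSCA-32, the 68.7th in PBS and the 48.8th at week 0. In OSCA-40 it was among the 6.41% of protein-coding genes that reached 10 in both libraries, while in OSCA-32 and at week 0 it lay near the median gene. Every member stood at a higher percentile in OSCA-40 than in PBS, where the median gene was higher. Itih4, for example, was at the 85.9th in OSCA-40 and the 70.5th in PBS, with a lower deposited mean in OSCA-40.

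OSCA-40 was first set against PBS, the injected mice without tumour cells. Of the 8 members, 3 (Saa2, Saa4 and Itih4) had at least 10 units in at least 2 libraries and were tested, and 1 of these, Saa2, rose. Across all 7872 genes tested 6.77% were called. Saa2 had passed the minimum through both OSCA-40 libraries and 1 PBS library. It rose by a log2 fold change of 1.98 ± 0.31 (SE; adjusted p = 0.00954, limma). Adjusted p was 0.0745 without the first PBS library and 0.0716 without the second OSCA-40 library, with folds of 1.75 and 1.85. With library totals alone the fold was 0.45 (adjusted p = 0.206, limma), a setting in which the median tested mouse gene was at -1.53.

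The sum of Saa1 and Saa2 leaves aside how reads were divided within the pair. It was 17 and 19 in OSCA-40, 6 and 7 in OSCA-32, 11 and 18 in PBS and 11 and 9 at week 0. As deposited the OSCA-40 and PBS libraries overlapped, and scaled they did not, at 38.1 ± 4.12 in OSCA-40, 6.54 ± 0.584 in OSCA-32, 9.74 ± 3.24 in PBS and 6.99 ± 1.07 at week 0 (SD, n = 2 each). The sum rose in OSCA-40 against PBS by 1.89 ± 0.26 (SE; adjusted p = 0.00593, limma), and adjusted p stayed between 0.0126 and 0.0381 when any of the 8 libraries was left out. With library totals alone it was 0.31 (adjusted p = 0.293, limma).

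**Figure D3:**
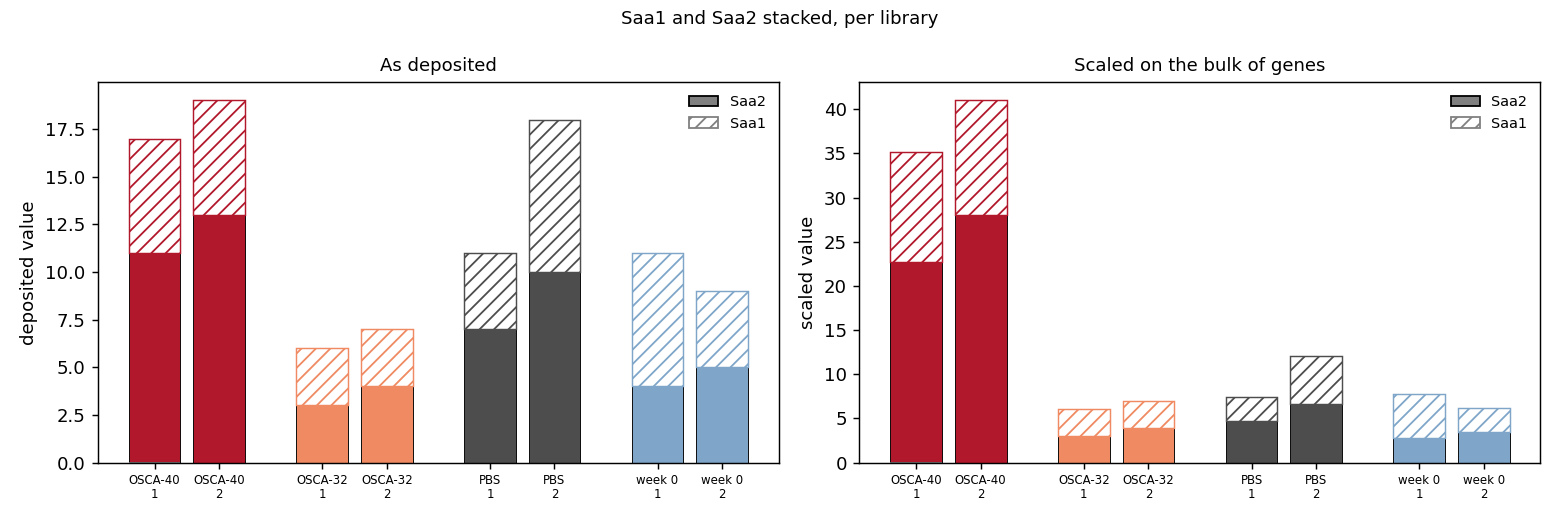
Saa2 (filled) and Saa1 (hatched) stacked for each of the 8 libraries, as deposited (left) and scaled on the bulk of genes (right); the y axes give relative amounts. The OSCA-40 stacks reach 17 and 19 as deposited, which overlaps with 11 and 18 in PBS, and are above all others once scaled.

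Saa1 alone was listed at 6 and 6 in OSCA-40, 3 and 3 in OSCA-32, 4 and 8 in PBS and 7 and 4 at week 0. Its OSCA-40 values lay between those of PBS as deposited, and its level never reached the minimum for the test. With a minimum of 5 units its fold in OSCA-40 against PBS was 1.46 ± 0.37 (SE; adjusted p = 0.1, limma). Saa2 made up 64.7% and 68.4% of the pair in OSCA-40, 50% and 57.1% in OSCA-32, 63.6% and 55.6% in PBS and 36.4% and 55.6% at week 0. These shares overlapped between OSCA-32, PBS and week 0, and both OSCA-40 shares were above all of them, the lower one close to the 63.6% of the first PBS library.

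Hp encodes haptoglobin, which binds free haemoglobin in plasma. Hp was listed at 5 and 6 in OSCA-40, 4 and 3 in OSCA-32, 4 and 4 in PBS and 5 and 5 at week 0. The OSCA-40 libraries were 1 to 2 units above PBS as deposited, and scaled they averaged 11.6 ± 1.84 against 2.69 ± 0.0247 in PBS (SD, n = 2 each). It did not enter the test. With a minimum of 5 units in 2 libraries, which it met through week 0 and OSCA-40, it rose by 1.74 ± 0.28 (SE; adjusted p = 0.0188, limma) in OSCA-40 against PBS, where 3.85% of 16718 genes passed. If the whole numbers were rounded, the values could stand for a log2 fold between 1.52 and 2.02, and if they were shortened to whole numbers, between 1.53 and 1.99. For Saa2 the same ranges were 1.85 to 2.12 and 1.84 to 2.10. These ranges hold the scale factors fixed and leave out variation between libraries. Among the members only Lcn2 had ranges reaching below 0, and uncalled members such as Saa4 (0.26 to 0.39 if rounded) stayed above it. The ranges therefore do not set Saa2 and Hp apart.

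Higher deposited values were uncommon among mouse genes in OSCA-40. In OSCA-40 against PBS both libraries were higher than both in 2 of 8 members as deposited, Saa2 and Hp. Among 30057 mouse genes with any value 0.632% did so. The members were chosen with earlier results of these data known, so this share is given for scale and is no test of the set. Saa3, Saa4 and Lcn2 were lower in both as deposited, where 74.1% of mouse genes were. On scaled values 5 of 8 members were higher in both OSCA-40 libraries (Saa1, Saa2, Saa3, Saa4 and Hp) and none was lower. The corresponding share of mouse genes was 23.1% higher, and 21.3% lower.

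Saa4, the constitutive form, was the most abundant member. It was listed at 14 and 18 in OSCA-40, 40 and 39 in OSCA-32, 39 and 40 in PBS and 41 and 48 at week 0. The OSCA-40 values were far below the others as deposited, while OSCA-32 and PBS had the same values. Scaled, it averaged 33.9 ± 6.99 in OSCA-40, 39.8 ± 1.49 in OSCA-32, 26.6 ± 0.232 in PBS and 31.1 ± 3.08 at week 0 (SD, n = 2 each). Its fold was 0.32 ± 0.17 (SE; adjusted p = 0.322, limma) in OSCA-40 against PBS, and with library totals alone it took the opposite sign and passed, at -1.28 ± 0.16 (adjusted p = 0.00038, limma).

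Itih4 encodes a heavy chain of the inter-alpha-trypsin inhibitor family that the liver secretes. Itih4 was listed at 8 and 3 in OSCA-40, 7 and 4 in OSCA-32, 8 and 10 in PBS and 7 and 11 at week 0. All groups overlapped except that both OSCA-32 libraries were below both PBS libraries. Its fold in OSCA-40 against PBS was 0.70 ± 0.48 (SE; adjusted p = 0.465, limma) with scaling and -0.74 with library totals alone. It had passed the minimum through 1 PBS and 1 week 0 library.

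The other low members overlapped between most groups. Lcn2, the iron-siderophore binding lipocalin of neutrophils and inflamed epithelium, was listed at 4 and 1 in OSCA-40, 4 and 6 in OSCA-32, 6 and 7 in PBS and 7 and 7 at week 0. Saa3 was listed at 3 and 2 in OSCA-40, 1 and 4 in OSCA-32, 4 and 5 in PBS and 6 and 5 at week 0. Both were lower in each OSCA-40 library than in each PBS library as deposited. Scaled, Lcn2 averaged 5.22 ± 4.32 in OSCA-40 and 4.37 ± 0.436 in PBS, and Saa3 5.26 ± 1.34 in OSCA-40 and 3.03 ± 0.448 in PBS (SD, n = 2 each). Orm1, which encodes orosomucoid, a carrier of basic drugs in plasma, was listed at 5 and 2 in OSCA-40, 2 and 3 in OSCA-32, 4 and 8 in PBS and 4 and 2 at week 0. Summed with its copies Orm2 and Orm3 it stood at 10 and 3 in OSCA-40, 6 and 10 in OSCA-32, 12 and 16 in PBS and 14 and 9 at week 0, with 4 units or more between the libraries of every group. With a minimum of 5 units none of Lcn2, Saa3 and Orm1 was called in OSCA-40 against PBS (lowest adjusted p = 0.588, limma).

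**Figure D4:**
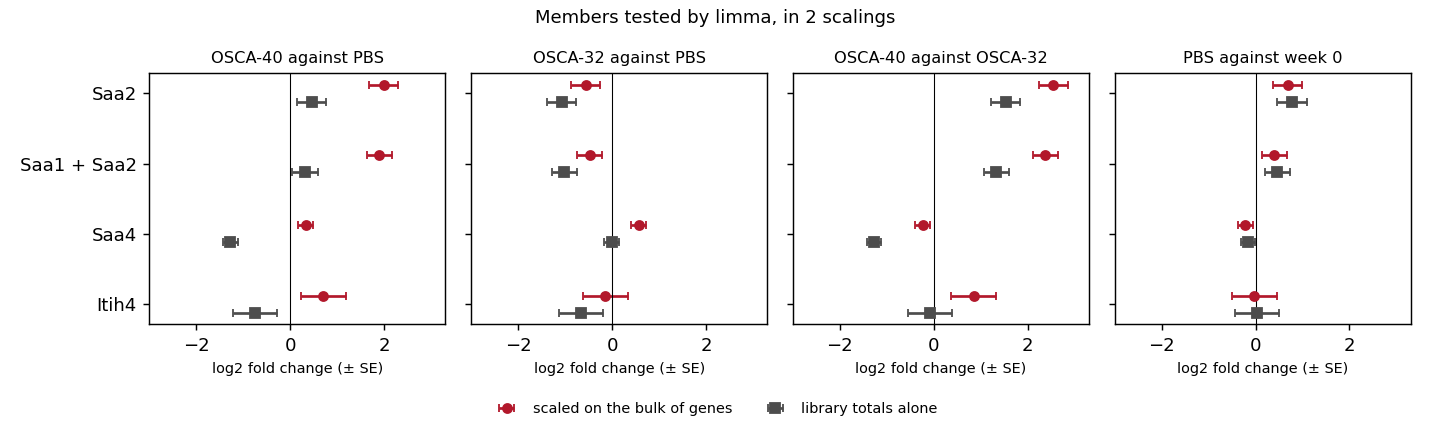
Log2 fold change with its SE (x axis) of the 3 tested members and of the sum of Saa1 and Saa2 (y axis) in each of the 4 comparisons, with scaling on the bulk of genes (red circles) and with library totals alone (grey squares). Saa2 in OSCA-40 against PBS is at 1.98 with scaling and 0.45 without, and Saa4 is at 0.32 with scaling and -1.28 without.

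OSCA-32 was set against the same PBS libraries, so both comparisons share them. Of the 3 tested members 0 passed in OSCA-32 against PBS with limma, 1 (Saa4) at an unadjusted p under 0.05, and 1.09% of all genes tested were called. Saa2 had a fold of -0.56 ± 0.31 (SE; adjusted p = 0.606, limma) and the sum of Saa1 and Saa2 of -0.48 ± 0.26 (adjusted p = 0.607, limma). As deposited Saa1, Saa2, Orm1 and Itih4 were lower in both OSCA-32 libraries than in both PBS libraries, where 42.1% of mouse genes were, and none was higher in both, where 2.2% were. On scaled values only Saa2 remained lower in both (20.0% of mouse genes), and Saa4 and Hp were higher (16.7%). With library totals alone the sum passed as lower, at -1.02 ± 0.27 (adjusted p = 0.0432, limma). Saa4 had a fold of 0.56 ± 0.17 (SE; adjusted p = 0.253, limma), while its deposited values were equal to those of PBS.

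The difference between the lines was tested directly. In OSCA-40 against OSCA-32, 1 of 3 tested members passed, Saa2, where 2.73% of all genes were called. This member reached the minimum in both OSCA-40 libraries and in neither OSCA-32 library, so it entered the test partly through the group where it was high. Saa2 was higher in OSCA-40 by 2.55 ± 0.31 (SE; adjusted p = 0.00833, limma), and by at least 2.40 when any 1 library was left out, with adjusted p = 0.0562 without the second OSCA-40 library. The sum of Saa1 and Saa2 was higher by 2.37 ± 0.26 (adjusted p = 0.00557, limma). With library totals alone Saa2 was higher by 1.53 (adjusted p = 0.00691, limma) and the sum by 1.33 (adjusted p = 0.00634, limma). Saa1, Saa2 and Hp were higher in both OSCA-40 libraries than in both OSCA-32 libraries as deposited, an arrangement found in 1.18% of mouse genes. Saa1 and Saa2 share many of their words, so they are not separate cases. On scaled values Saa1, Saa2, Saa3, Hp and Orm1 were higher in both (23.5% of mouse genes) and none was lower in both (15.8%). Saa4 was lower in both as deposited, as were 49.3% of mouse genes, and its scaled fold was -0.24 ± 0.17 (SE; adjusted p = 0.532, limma). Itih4 had a fold of 0.85 ± 0.48 (adjusted p = 0.447, limma).

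PBS against week 0 showed how the members stood without a tumour, with 8 weeks, handling and the injection between the groups. Of the 3 tested members 0 passed with limma, and 0 at an unadjusted p under 0.05, with 0.165% of all genes called. Saa2 had a fold of 0.69 ± 0.31 (SE; adjusted p = 1, limma), and both its PBS libraries were above both week 0 libraries as deposited, where 15.5% of mouse genes were. The sum of Saa1 and Saa2 differed by 0.40 ± 0.26, Saa4 by -0.21 ± 0.17 and Itih4 by -0.03 ± 0.48 (SE; adjusted p = 1 for each, limma). Saa4 and Hp were lower in both PBS libraries as deposited, where 8.67% of mouse genes were. On scaled values Saa2 was higher in both (15.0% of mouse genes) and Saa3, Saa4, Hp and Lcn2 were lower in both (21.8%).

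Other genes of the response were read from lists. Of 37 listed other positive acute phase genes 7 were tested, and 0 passed with limma in any of the 4 comparisons (1 at an unadjusted p under 0.05 in OSCA-40 against PBS). Their median fold in OSCA-40 against PBS was 0.28, against -0.04 for all tested mouse genes. Crp, the pentraxin that is a major acute phase protein in humans and changes little in mice, was their highest. It stood at 19 and 17 in OSCA-40, 47 and 41 in OSCA-32, 50 and 59 in PBS and 62 and 55 at week 0, with a scaled fold of 0.05 ± 0.14 (SE; adjusted p = 0.882, limma) in OSCA-40 against PBS. Il1rn, the interleukin-1 receptor antagonist, had a fold of 0.50 ± 0.21 (adjusted p = 0.233, limma) there.

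None of the tested genes that are known to be made less in the acute phase was called lower after scaling. Of 18 listed negative acute phase genes 4 were tested, and 2 rose in OSCA-40 against PBS, where 6.77% of all genes passed. Albumin, Alb, rose by 1.70 ± 0.30 (SE; adjusted p = 0.0176, limma) and the iron carrier Trf by 0.76 ± 0.17 (adjusted p = 0.0388, limma). As deposited Alb was at 11 and 11 in OSCA-40 and 7 and 13 in PBS, and Trf at 13 and 11 in OSCA-40 and 21 and 22 in PBS. In the other 3 comparisons 0 of the 4 passed, with 1, 1 and 0 at an unadjusted p under 0.05.

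Of 28 listed inducing cytokines, receptors and factors 6 were tested and 0 passed in any comparison with limma (2 at an unadjusted p under 0.05 in OSCA-40 against PBS). Stat3, the factor downstream of interleukin-6, was at 6 and 6 in OSCA-40, 16 and 16 in OSCA-32, 32 and 32 in PBS and 31 and 43 at week 0, with a fold of -0.72 ± 0.18 (SE; adjusted p = 0.0675, limma) in OSCA-40 against PBS. Nfkb1 had a fold of 0.41 ± 0.20 (adjusted p = 0.292, limma). Of 16 listed receptors and ligands of the member proteins 9 were tested. Hba-a2, an alpha-globin gene whose product haptoglobin binds and which has a nearly identical copy, was at 194 and 196 in OSCA-40, 157 and 173 in OSCA-32, 184 and 189 in PBS and 299 and 313 at week 0. In OSCA-40 against PBS Hba-a2 rose by 1.71 ± 0.07 (adjusted p = 1.71e-05, limma). Hba-a2 was also higher in OSCA-40 than in OSCA-32, by 1.31 ± 0.07 (adjusted p = 0.000422, limma), and differed by -0.76 ± 0.07 in PBS against week 0 (adjusted p = 0.0153, limma).

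Scaled sums of hepatocyte, platelet and erythroid markers were also higher in OSCA-40 than in PBS. This was not particular to them. The other positive acute phase genes summed to 225 to 235 in OSCA-40 and 163 to 169 in PBS. The negative ones summed to 132 to 162 in OSCA-40 and 66.4 to 86.3 in PBS. The inducing cytokines, receptors and factors were lower, at 108 to 119 in OSCA-40 and 125 to 131 in PBS. The summed scaled level of 18 hepatocyte markers was 178 to 183 in OSCA-40, 103 to 106 in OSCA-32, 72.9 to 73.2 in PBS and 68.6 to 81.0 at week 0. Both OSCA-40 libraries had the hepatocyte enzyme Tat at 0. Of the 5 tested, Alb and the fatty acid carrier Fabp1 rose in OSCA-40 against PBS, Fabp1 by 2.91 ± 0.55 (SE; adjusted p = 0.0213, limma). As deposited the hepatocyte sum was 85 to 86 in OSCA-40 and 108 to 109 in PBS. The 12 platelet markers summed to 227 to 256 scaled units in OSCA-40, 93.4 to 105 in OSCA-32, 62.2 to 78.6 in PBS and 56.1 to 64.8 at week 0, with Nrgn at 0 in every group, and of 3 tested Pf4, at 2.76 ± 0.25 (adjusted p = 0.000865, limma), and Ppbp rose. The 11 erythroid markers summed to 558 to 643 in OSCA-40, 295 to 302 in OSCA-32, 237 to 257 in PBS and 340 to 362 at week 0. Of 8 tested 1 was higher in OSCA-40 against PBS, Hba-a2. In that comparison 6.77% of all genes tested were called, so 1 of 8 says little about the erythroid list. As deposited the platelet sums overlapped, at 105 to 124 in OSCA-40 and 93 to 116 in PBS. Pf4 alone was at 85 and 69 in OSCA-40 and 39 and 30 in PBS, and Ppbp at 9 and 8 against 7 and 9. The deposited erythroid sum was lower in OSCA-40, at 270 to 298 against 350 to 384 in PBS. Single genes made up most of both sums in OSCA-40, Pf4 of the platelet sum and Hba-a2, at 194 and 196, of the erythroid sum. The part of these markers in the result for Saa2, and that of the canine share, was not tested.

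Summed markers of the cells known to make Lcn2 and Saa3 differed less between groups after scaling. The 13 neutrophil markers summed to 132 to 140 scaled units in OSCA-40, 148 to 150 in OSCA-32, 146 to 165 in PBS and 147 to 170 at week 0, and S100a9 was listed at 0 in all 4 tumour libraries. The 12 monocyte and macrophage markers summed to 62.0 to 64.7 in OSCA-40, 55.6 to 67.4 in OSCA-32, 64.9 to 65.7 in PBS and 56.8 to 65.5 at week 0, with Cd68 and Csf1r at 0 in both OSCA-40 libraries. The 10 adipocyte markers summed to 321 to 329 in OSCA-40, 284 to 295 in OSCA-32, 282 to 295 in PBS and 311 to 314 at week 0, with Lep at 0 in OSCA-32 and PBS and Retn at 0 in OSCA-32. None of the 4, 2 and 5 tested genes of these lists passed in any comparison with limma (1, 0 and 2 at an unadjusted p under 0.05 in OSCA-40 against PBS). Single genes made up most of 2 of these sums. As deposited, Lpl held 140 and 130 of the adipocyte sum of 149 to 159 in OSCA-40, and 378 and 369 of 421 to 435 in PBS. Cxcr2 held 41 and 35 of the neutrophil sum of 64 to 65 in OSCA-40, and 139 and 158 of 216 to 247 in PBS.

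The genes whose pattern over the 8 libraries was closest to a member's were found among 6128 tested protein-coding genes, by the root mean square difference of centred log2 scaled values. For the sum of Saa1 and Saa2 these were Vps33a, of lysosomal trafficking, at 0.39, the phosphorylase kinase subunit Phkg2 at 0.40 and H2-T24, an MHC class I gene, at 0.42. For Saa2 alone they were Vps33a at 0.43, the elongation factor Eef1a1 at 0.45 and Phkg2 at 0.46. Saa4 had much closer matches, Dgcr6 at 0.07, Lrrc3 at 0.08 and Tll1 at 0.08, and Itih4 was nearest to Bmp5 at 0.19, Cobl at 0.20 and Hdac6 at 0.22. The libraries fall into 4 groups that share the scaling, so these figures describe likeness over 8 libraries and nothing more.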

How the data were processed

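Per the labels' protocols, serum vesicles were precipitated with ExoQuick, their RNA was purified with SeraMir, and a SMARTer pico-input kit gave strand-specific total RNA libraries. Tools named in the submitters' processing notes are FastQC 0.11.5, Trimmomatic 0.33.0 and kallisto 0.43.0, with GRCm38.p5 for mouse and CanFam3.1 for dog. Which index and annotation release served is not given in the sources used here. Whole numbers deposited by the authors are called counts by their table but were treated as a score: they sum to between 977106 and 989183 in every library and do not rise with transcript length (Spearman -0.17 over 21173 protein-coding genes). They keep no depth, so no counting interval is given.

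Values were scaled by the trimmed, unweighted mean of each library's log ratios, taken against week 0 library 1 (30% of ratios and 5% of levels trimmed at each end; factors with a geometric mean of 1). limma 3.58.1 in R 4.3.3 was fitted on log2(scaled value + 1) for 7655 mouse and 217 canine genes with at least 10 units in at least 2 libraries, with all 8 libraries, a mean per group and a trended variance. Adjusted p-values are Benjamini-Hochberg values over all 7872 genes within each of 4 comparisons, called at 0.05. The sum of Saa1 and Saa2 replaced both rows in a second fit. The script was tested on simulated data. Of 100 genes changed 2-fold, 36 to 44 were recovered, depending on the comparison, and of 100 changed 4-fold, 76 to 89. Of the unchanged genes 5 to 9 were called in each comparison. The changed genes were drawn from all genes tested, so these rates are not specific to genes as low as most members. A gene that was not called may therefore still have changed. Symbols, coordinates and transcripts come from GENCODE M21 on GRCm38, which named 31171 of 31300 mouse identifiers.

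The members and the lists were chosen with earlier results of these data known. Named genes are all members and their copies, the 3 genes nearest to each tested member, and from each list those called or else the 2 highest; the vesicle markers and the olfactory receptors were added after values were seen. Alternatives were median-of-ratios scaling, library totals, scaling on mouse genes, pseudocounts of 0.25 and 4, a minimum of 5, no filter, a fit of only the groups compared, a block for the replicate number, no variance trend and leaving out each library. A result from the list of receptors and ligands is not reported here.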

Additional observations from a re-analysis of the deposited data

Results flagged for a closer look

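Saa2 differed between the libraries of the 2 lines: in the direct test of OSCA-40 against OSCA-32 it was higher by 2.55 ± 0.31 on the log2 scale (SE; adjusted p = 0.00833, limma), at 11 and 13 deposited units in OSCA-40 and 3 and 4 in OSCA-32. The sum of Saa1 and Saa2 differed likewise, by 2.37 ± 0.26 (adjusted p = 0.00557, limma), at 17 and 19 in OSCA-40 and 6 and 7 in OSCA-32. Between these groups Saa2 reached the minimum of the test in the OSCA-40 libraries alone, so it entered partly through the group where it was high. The groups have 2 libraries each, too few to look for a single library that stands apart.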

How the results depend on the processing

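The sum of Saa1 and Saa2 kept its sign under all 18 alternatives in each comparison. With library totals alone its fold was 0.31 in OSCA-40 against PBS, which did not pass, -1.02 in OSCA-32 against PBS, which did, and 1.33 between the lines, which did. Leaving out single libraries gave 1.56 to 2.18 in OSCA-40 against PBS, -0.79 to -0.17 in OSCA-32 against PBS and 2.28 to 2.50 between the lines. Library totals alone reversed Saa4 in OSCA-40 against PBS (-1.28) and OSCA-32 against PBS (-0.0088), and Itih4 in OSCA-40 against PBS (-0.74), OSCA-40 against OSCA-32 (-0.082) and PBS against week 0 (0.023); this setting does not remove the lower level of mouse genes. Leaving out single libraries gave Itih4 values of 0.09 to 1.33 in OSCA-40 against PBS, -0.50 to 0.21 in OSCA-32 against PBS, 0.24 to 1.48 between the lines and -0.29 to 0.11 in PBS against week 0, over 6 of the 8 libraries, since without either of the other two it was under the minimum.

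The number of members called in OSCA-40 against PBS was 2 with a minimum of 5 or no filter, Hp joining Saa2, and 0 to 1 without single libraries. Between the lines it was 2 with library totals (Saa2 and Saa4) or no filter (Saa2 and Hp), and 0 to 1 without single libraries. It was 0 under every alternative in OSCA-32 against PBS and PBS against week 0.

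Of all genes, 533 were called in OSCA-40 against PBS, 86 in OSCA-32 against PBS, 215 between the lines and 13 in PBS against week 0. In OSCA-40 against PBS the count was 6725 with library totals, 2303 with no filter, 312 with only the groups compared, 313 with no variance trend and 277 to 527 without single libraries. In OSCA-32 against PBS it was 1353 with library totals, 46 with only the groups compared and 38 to 86 without single libraries. Between the lines it was 4638 with library totals, 1726 with no filter, 80 with only the groups compared, 113 with no variance trend and 70 to 171 without single libraries. In PBS against week 0 it was 8 with a minimum of 5, 2 with no filter, 2 with only the groups compared, 5 with no variance trend and 2 to 10 without single libraries. The cause of these changes was not tested.

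With the replicate number as a block the counts were 460, 60, 143 and 6 in the same order, and no call of a member changed. Pairing by these numbers was not seen: the correlation between groups of the difference of library 1 and library 2 was between -0.06 and 0.01 over 7872 genes. At such low whole-number values this cannot exclude a small shared effect. A library left alone in its group is assumed to vary like the others. Depth is unknown, and most members stand at values of 1 to 10, where a step of 1 unit is a large part of the level.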
